A study of Mus musculus with 12 samples.

Results

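The Slc25 genes encode the mitochondrial carrier family, most of whose proteins lie in the inner mitochondrial membrane and exchange nucleotides, phosphate, carboxylates, amino acids, acylcarnitines, cofactors and metals between the cytosol and the mitochondrial matrix. Slc25a17 of peroxisomes and Slc25a46 of the outer mitochondrial membrane are among the exceptions. Members were chosen by symbol alone, as Slc25a followed by a number, and 47 of the 36008 genes of the deposited expression table carried such a symbol. Of these, 32 passed the filter of more than 5 TPM in at least 1 library and were tested, among 10481 genes tested in all, and 15 did not pass. TPM is transcript abundance per length as a share of a library, so a difference between libraries is relative to their other transcripts.

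Both the gastrocnemius and the quadriceps were taken from the left hind limb of 6 adult female mice for RNA-seq, giving 12 libraries in 4 groups of 3. Mice M02, M03 and M08 stayed on the ground in the same type of housing hardware, and mice M11, M12 and M20 lived on the International Space Station for the whole experiment. All 6 mice, ground and flight, had received phosphate-buffered saline injections as the control arm of a bone study. The labels give the strain as C57BL/6 whereas the study's methods give BALB/c, and carcasses were frozen and thawed before the muscles were dissected. Skeletal muscle fiber markers summed to between 82608 and 118936 TPM in each library. The quadriceps library of ground mouse M08 had a value above 0 for 18172 genes, and the remaining libraries for 20291 to 21265. In bulk muscle, fewer cells of a type and less RNA per cell cannot be told apart.

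Muscle contraction depends on ATP made in the matrix and used in the cytosol. The adenine nucleotide carrier Slc25a4 exports ATP in exchange for ADP, the phosphate carrier Slc25a3 imports the phosphate needed to make it, and the aspartate/glutamate carrier Slc25a12 and the oxoglutarate/malate carrier Slc25a11 move reducing equivalents in the malate-aspartate shuttle. Slc25a20 brings acylcarnitines into the matrix for fatty acid oxidation, and Slc25a1 exports citrate, from which cytosolic acetyl-CoA for lipid synthesis is made.

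Slc25a3 carries a pair of mutually exclusive exons, here named exon A and exon B in the order of the transcript. Exon A is known as the form of heart and skeletal muscle and exon B as the form of other tissues. Both sequences are shown because the splicing results below turn on the choice between them, and they are printed in lower case. On the minus strand of chromosome 10 (GRCm38, the build named mm10) exon A lies at chr10:91122207-91122331 and exon B at chr10:91121922-91122043, both wholly coding in GENCODE vM21.
Exon A: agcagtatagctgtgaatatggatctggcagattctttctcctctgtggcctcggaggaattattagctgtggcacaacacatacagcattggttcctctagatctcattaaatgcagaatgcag
Exon B: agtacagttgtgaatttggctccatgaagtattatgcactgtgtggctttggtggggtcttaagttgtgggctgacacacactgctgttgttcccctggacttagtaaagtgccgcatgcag
Exon A has 125 bases and exon B 122, and 85 of 129 columns of their global alignment were identical (65.9%). A second, longer form of exon A ends 99 bases later, and the annotation places it in a transcript marked for nonsense-mediated decay.

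The carrier transcripts were dominated by Slc25a4. It was listed at 1371 ± 57.4 TPM in ground gastrocnemius, 1131 ± 77.2 in flight gastrocnemius, 1612 ± 44.6 in ground quadriceps and 1403 ± 63.0 in flight quadriceps (SD, n = 3). Slc25a4 alone held between 46.4% and 57.2% of the summed TPM of all 47 members, and the 5 most abundant members together held 83.6% to 86.4%. Its close relative Slc25a5, the adenine nucleotide carrier of proliferating cells, was listed at only 14.8 to 29.8 TPM, so that the ratio of Slc25a4 to Slc25a5 lay between 50.4 and 82.4. For Slc25a5, 49.4% of its 31-base stretches also occurred in transcripts of other genes, so its level depends on how reads were shared among copies.

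The next members in order of mean TPM were Slc25a3 (278 to 426 TPM over the libraries), the calcium-regulated ATP-Mg/phosphate carrier Slc25a25 (95.2 to 372), Slc25a12 (171 to 204) and Slc25a11 (82.6 to 129). The ranges of Slc25a25 and of both its neighbours in that order overlapped. Slc25a20 (37.3 to 54.1 TPM) and the pyrimidine nucleotide carrier Slc25a36 (32.3 to 45.0) came next and overlapped as well. The NAD carrier Slc25a51, the coenzyme A carrier Slc25a42, Slc25a5 and the glutathione carrier Slc25a39 were also among the 12 highest, all between 14.8 and 30.3 TPM. Of the 15 members under the filter, Slc25a54 was listed at 0 in every library and Slc25a31, the testis adenine nucleotide carrier, reached at most 0.018 TPM. The others under the filter peaked between 0.188 TPM (Slc25a48) and 4.66 TPM (Slc25a29).

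**Figure D1:**
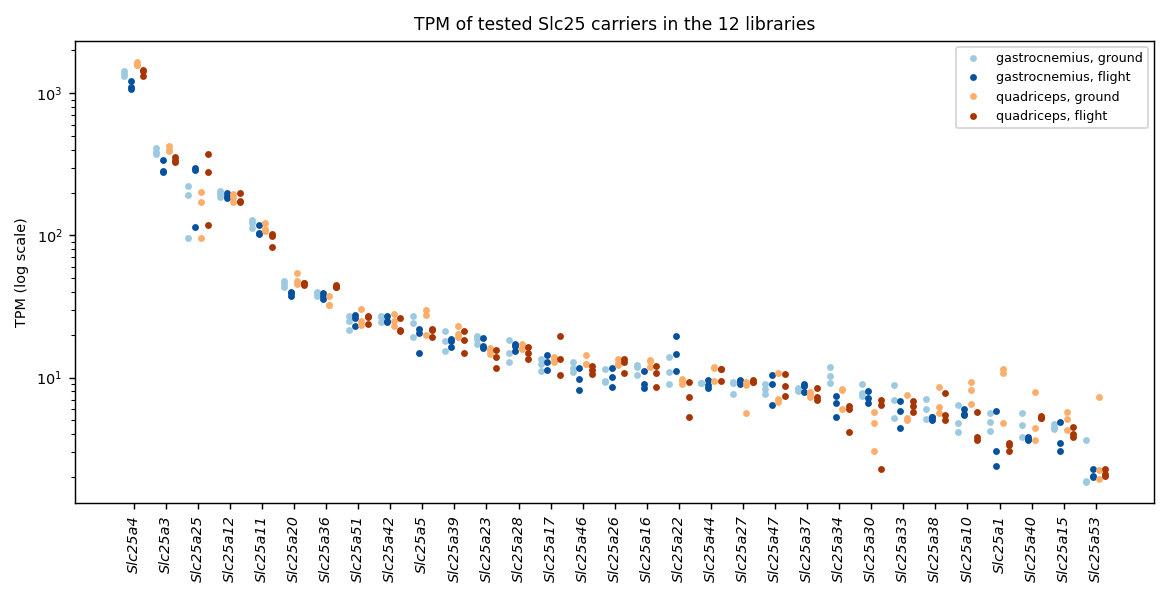
TPM (log scale) of tested carriers, ordered by mean level, with 1 point per library and a color per group of 3 libraries. Slc25a4 lies at or above 1071 TPM in every library, and 5 carriers account for most of the summed level.

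The first comparison asked which carriers differed between flight and ground mice in the gastrocnemius. No member was called by limma, for which an adjusted p under 0.05 together with more than 1.5-fold was required, where 0.229% of all genes were called. At an unadjusted p under 0.05, 4 members were lower in flight, against 6.55% of all genes, and 0 were higher, against 8.52%. Without the flight library of mouse M11 the number at that threshold was 10, and without any other library it was 4. More of all genes were also called without M11, and their share at the unadjusted threshold was not computed. The same 4 members, Slc25a3, Slc25a4, Slc25a20 and Slc25a34, were lower in flight without overlap between the groups, against 8.55% of all genes. The median log2 change was -0.08 over the 32 members, 21 of them lower, and 0.02 over all genes tested, 46.4% of them lower.

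The 2 carriers of the ATP synthesis cycle were both among them. Slc25a4 was listed at 1317, 1431 and 1366 TPM in the ground mice and at 1218, 1103 and 1071 in the flight mice, so that every flight library lay below every ground library. Its log2 difference was -0.28 ± 0.08 (SE), with a limma adjusted p of 0.191. Slc25a3 had 373, 412 and 386 TPM in the ground mice and 339, 278 and 284 TPM in the flight mice, a log2 difference of -0.38 ± 0.09 (adjusted p = 0.167). Without the flight library of mouse M11, the highest of the 3, the adjusted p of Slc25a3 was 0.0377 at a log2 difference of -0.47, still under 1.5-fold.

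Slc25a34, a carrier whose substrate is not settled, had the largest log2 decrease of the 32 members in the gastrocnemius. It had 9.18, 10.2 and 11.8 TPM in the ground mice and 5.24, 7.43 and 6.64 TPM in the flight mice, a log2 difference of -0.62 ± 0.15 (adjusted p = 0.155). Slc25a20 had 43.1, 45.3 and 47.7 TPM in the ground mice and 37.3, 39.4 and 39.97 TPM in the flight mice, a log2 difference of -0.22 ± 0.08 (adjusted p = 0.277). In all 4 of these carriers the direction was shared by every pair of a flight and a ground library, and none passed the adjusted threshold. In the same libraries the slow fiber markers summed to between 1828 and 2247 TPM on the ground and between 1120 and 1350 after flight. Of these markers, 6 of 9 were lower without overlap, against 8.55% of all genes. The slow myosin light chains Myl3 and Myl2 and the calcium pump Atp2a2 fell, with log2 changes of -0.90, -1.33 and -0.88 (adjusted p = 0.0361 for each), and the slow troponin Tnni1 differed by -0.79 (adjusted p = 0.0706). Of the other fiber markers, Myh2, Tnnt3 and Myh4 differed there by -0.34, 0.18 and 0.17 (adjusted p = 0.218, 0.245 and 0.278). Their part in the carrier differences was not tested.

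The second comparison was the same contrast in the quadriceps. No member was called by limma, where 0.0286% of all genes were called. At an unadjusted p under 0.05, 1 member was higher in flight, against 5.66% of all genes, and 5 were lower, against 5.18%. The median log2 change was -0.13 over the 32 members, 24 of them lower, and 0.01 over all genes tested, 47.9% of them lower. One member was higher without overlap between the groups (9.24% of all genes) and 6 were lower without overlap (8.12%).

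Slc25a4 and Slc25a3 were lower in this muscle as well. Slc25a4 had 1664, 1584 and 1589 TPM in the ground mice and 1445, 1330 and 1433 TPM in the flight mice, a log2 difference of -0.20 ± 0.06 (adjusted p = 0.363). Slc25a3 had 426, 393 and 401 TPM in the ground mice and 339, 330 and 354 TPM in the flight mice, a log2 difference of -0.25 ± 0.06 (adjusted p = 0.319). In both genes all flight libraries lay below all ground libraries in both muscles, which come from the same 6 mice. Slc25a34 had 8.35, 5.96 and 8.16 TPM in ground quadriceps and 4.16, 6.28 and 5.98 TPM in flight quadriceps, with a lower mean after flight and with overlap.

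Of the 4 tested carboxylate carriers, 3 were lower in the quadriceps at an unadjusted p under 0.05, against 5.18% of all genes. The citrate carrier Slc25a1 had 11.5, 10.8 and 4.8 TPM in the ground mice and 3.05, 3.38 and 3.44 TPM in the flight mice, a log2 difference of -1.15 ± 0.30 (adjusted p = 0.329). The ground value of mouse M08 lay far below those of the other two ground mice, and without that library the log2 difference was -1.50 (adjusted p = 0.0647). The dicarboxylate carrier Slc25a10 had 8.14, 6.52 and 9.26 TPM in the ground mice and 3.82, 3.66 and 5.75 TPM in the flight mice, a log2 difference of -0.74 ± 0.20 (adjusted p = 0.344). Slc25a11 had 123, 108 and 111 TPM in the ground mice and 99.1, 82.6 and 102 TPM in the flight mice, a log2 difference of -0.27 ± 0.10 (adjusted p = 0.430). In the gastrocnemius Slc25a1 and Slc25a11 differed by -0.37 and -0.17 (limma adjusted p = 0.523 and 0.414).

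Adipocyte markers and enzymes that use cytosolic citrate were lower in the same quadriceps libraries. The adipocyte markers summed to 1163, 991 and 803 TPM in the ground mice and to 678, 548 and 673 TPM in the flight mice. Car3 alone held 545, 582 and 470 TPM of the ground sums and 453, 336 and 378 TPM of the flight sums. On the ground Car3 was higher in the gastrocnemius than in the quadriceps, whereas the other 8 tested were lower there. After flight 8 of the 9 tested were lower in the quadriceps without overlap, against 8.12% of all genes. Those with the smallest p, Cidec, Retn, Car3 and Cebpa, differed by -1.38, -1.39, -0.46 and -1.16 on the log2 scale (adjusted p = 0.244, 0.305, 0.344 and 0.345). Fasn, the fatty acid synthase, was at 70.9 ± 37.9 TPM on the ground and 21.4 ± 6.30 after flight (SD, n = 3), with an adjusted p of 0.355, and Acaca, an acetyl-CoA carboxylase, at 28.9 ± 9.74 and 16.1 ± 2.47 TPM (adjusted p = 0.399). Of the 8 genes on the list of citrate export and lipid synthesis enzymes, 7 were lower (47.9% of all genes). At an unadjusted p under 0.05, 2 of them were lower (5.18% of all genes). The part of the adipocyte markers in the level of Slc25a1 was not tested.

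Slc25a36 was the 1 member higher after flight in the quadriceps at an unadjusted p under 0.05. In the quadriceps it had 32.6, 32.3 and 37.4 TPM in the ground mice and 43.5, 45.0 and 43.6 TPM in the flight mice, a log2 difference of 0.36 ± 0.09 (adjusted p = 0.299). In the gastrocnemius its ground values were 37.6, 39.1 and 39.8 TPM and its flight values 39.0, 37.2 and 35.5, which overlapped. The interaction of flight and muscle was -0.42 ± 0.11 on the log2 scale (adjusted p = 0.955).

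**Figure D2:**
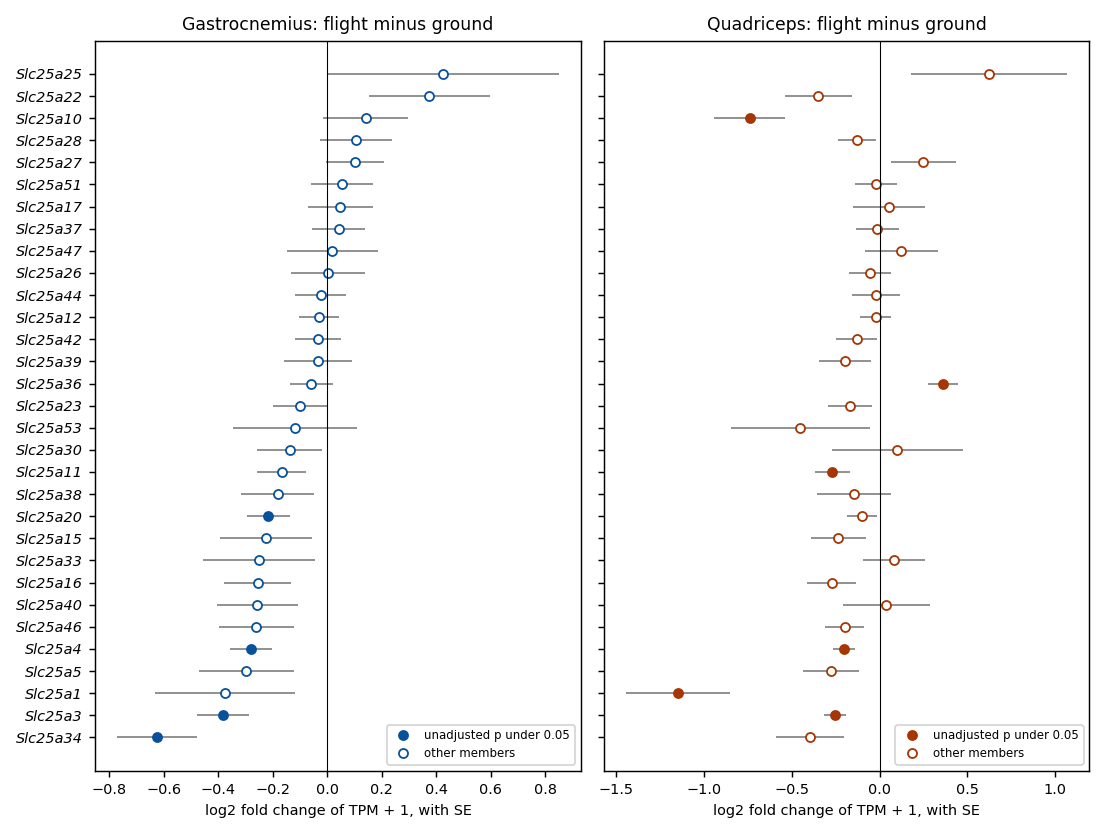
Log2 difference of TPM + 1, flight minus ground, with its standard error for the same carriers in the gastrocnemius (left) and the quadriceps (right), on axes of different range. Filled points mark an unadjusted limma p under 0.05, which 4 members reach in the gastrocnemius and 6 in the quadriceps.

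**Figure D3:**
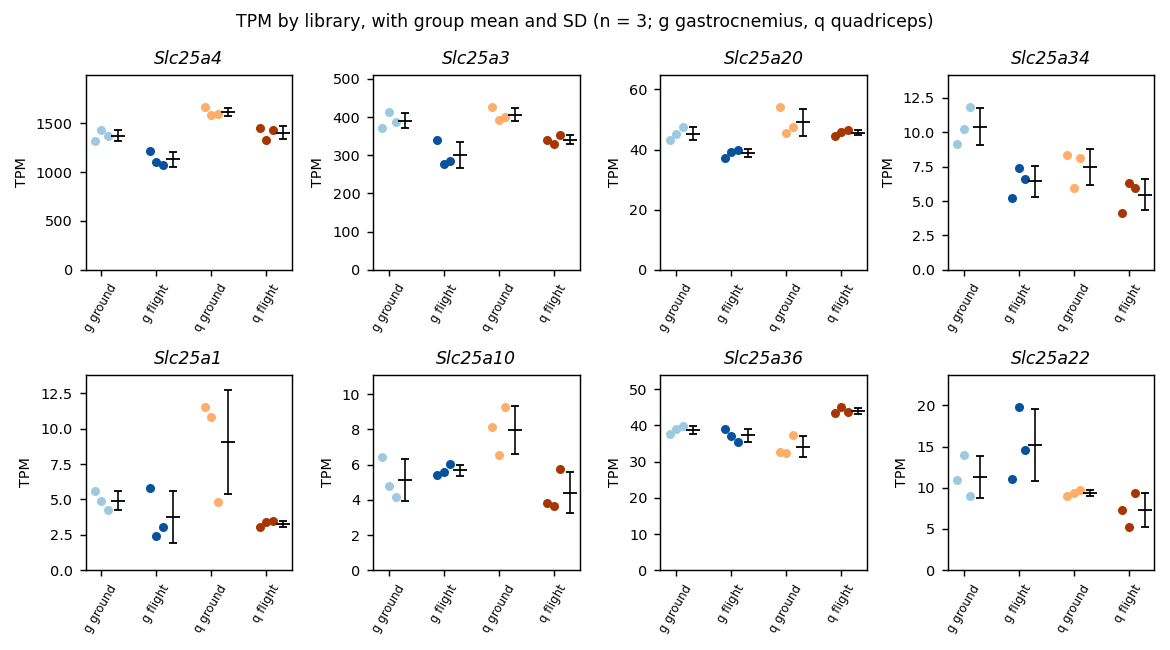
TPM of 8 carriers in each library, with the group mean and SD beside the points (n = 3). Slc25a4 and Slc25a3 are lower after flight in both muscles without overlap, and Slc25a1 is high in 2 of the 3 ground quadriceps libraries.

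Among all members, 3 had an interaction at an unadjusted p under 0.05, against 3.46% of all genes, and 0 had an adjusted p under 0.05 (0% of all genes). These were Slc25a36, Slc25a10 with a difference of effects of 0.88 ± 0.26 and the glutamate carrier Slc25a22 with 0.72 ± 0.31 (adjusted p = 0.999 for both). Slc25a10 was lower after flight in the quadriceps, whereas its gastrocnemius values were 6.45, 4.79 and 4.14 TPM on the ground and 5.44, 5.56 and 6.03 after flight.

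The partners of the carriers were read from lists of genes. The ATP synthase and creatine kinase list had 16 of its 17 tested genes lower in flight in each muscle. Of all genes, 46.4% were lower in the gastrocnemius and 47.9% in the quadriceps. The median log2 change of the list was -0.33 in the gastrocnemius and -0.25 in the quadriceps. In the gastrocnemius 13 of the 17 were lower at an unadjusted p under 0.05 (6.55% of all genes), and in the quadriceps 10 were (5.18%). Atp5l and Atp5b, subunits of the ATP synthase, differed by -1.05 and -0.38 in the gastrocnemius (adjusted p = 0.0945 and 0.157) and by -0.57 and -0.31 in the quadriceps (adjusted p = 0.298 and 0.329), where Atp5k differed by -0.44 (adjusted p = 0.319). Ckmt2, the mitochondrial creatine kinase of muscle, averaged 506 ± 18.5 TPM in ground and 388 ± 27.0 in flight gastrocnemius (adjusted p = 0.124). Atp5g2, a subunit c gene of the ATP synthase, fell in the quadriceps from 37.3 ± 5.48 to 14.7 ± 0.54 TPM, with a log2 change of -1.28 and an adjusted p of 0.0445, and differed by -1.81 in the gastrocnemius (adjusted p = 0.112). Of the 9 tested genes on the list of the pyruvate carrier and outer membrane channels, 4 were lower in the gastrocnemius and 5 in the quadriceps, with median log2 changes of 0.009 and -0.13. Mpc2, a subunit of the mitochondrial pyruvate carrier, was at 170 ± 6.88 and 120 ± 16.3 TPM in ground and flight gastrocnemius (adjusted p = 0.133). In the quadriceps Mpc2 was at 227 ± 14.1 and 167 ± 11.3 TPM (adjusted p = 0.272). The channel Vdac3 differed by -0.31 in the gastrocnemius and -0.18 in the quadriceps (adjusted p = 0.325 and 0.452), and Sfxn3, a sideroflexin, by 0.32 in the quadriceps (adjusted p = 0.459).

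Other partner lists held fewer differences. Of the carnitine shuttle enzymes, Cpt2, which re-forms acyl-CoA in the matrix, was at 34.1 ± 2.06 TPM on the ground and 26.6 ± 2.79 after flight in the gastrocnemius (adjusted p = 0.217). Gpd1, the cytosolic enzyme of the glycerol phosphate shuttle, was at 174 ± 4.33 and 214 ± 10.6 TPM in the gastrocnemius (adjusted p = 0.156). Smdt1, a subunit of the calcium uniporter, was at 95.1 ± 8.82 and 71.3 ± 10.9 TPM there (adjusted p = 0.223). Mtch2, a carrier relative of the outer membrane, was at 72.3 ± 2.52 and 58.9 ± 7.46 TPM in the quadriceps (adjusted p = 0.397). In the gastrocnemius Acacb, the mitochondrial acetyl-CoA carboxylase, and Car3, a carbonic anhydrase on the adipocyte list, differed by -0.19 and -0.39 (adjusted p = 0.326 and 0.2496). In the quadriceps Cpt2 and Smdt1 differed by -0.40 and -0.23 (adjusted p = 0.407 and 0.414), and the fiber markers Myh2, Myh4 and Myoz2 by -0.36, 0.21 and -0.50 (adjusted p = 0.298, 0.445 and 0.378). None of the blood, endothelium, nerve, macrophage or tendon markers tested was at an unadjusted p under 0.05 in either flight comparison.

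The muscles were also compared with each other within each condition. On the ground no member was called (2.21% of all genes), and Slc25a4 alone had an adjusted p under 0.05 (8.84% of all genes), with a log2 difference of gastrocnemius minus quadriceps of -0.23 ± 0.06 (adjusted p = 0.0459), under 1.5-fold. With any 1 of the 6 libraries left out its adjusted p was between 0.0748 and 0.151. All genes tested were shifted by a median log2 difference of -0.12 in this comparison and by -0.11 after flight, and after rescaling TPM by the median ratio Slc25a4 differed by -0.11 (adjusted p = 0.249). At an unadjusted p under 0.05, 3 members were higher in the gastrocnemius (4.25% of all genes) and 3 were lower (23.5%). Slc25a30, an uncoupling-protein-like carrier, was listed at 7.76, 7.44 and 9.08 TPM in the gastrocnemius and at 3.04, 4.82 and 5.69 in the quadriceps (log2 difference 0.75 ± 0.20, adjusted p = 0.0654). The other members with the smallest p on the ground were Slc25a10, the S-adenosylmethionine carrier Slc25a26, Slc25a34 and the ATP-Mg/phosphate carrier Slc25a23, with log2 differences of -0.56, -0.32, 0.43 and 0.24.

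After flight no member was called (1.66% of all genes). At an unadjusted p under 0.05, 2 members were higher in the gastrocnemius (4.57% of all genes) and 4 were lower (20%). Slc25a22 was listed at 11.05, 19.7 and 14.6 TPM in the gastrocnemius and at 7.32, 5.29 and 9.35 in the quadriceps, without overlap (log2 difference 0.95 ± 0.24, adjusted p = 0.0803). Slc25a4 differed by -0.31 ± 0.08 (adjusted p = 0.0816), and Slc25a40, Slc25a36, Slc25a20 and Slc25a23 by -0.41, -0.24, -0.23 and 0.31. Nerve and Schwann cell markers were higher in the gastrocnemius, at 139 to 212 TPM on the ground and 170 to 303 after flight, than in the quadriceps, at 54.8 to 86.9 and 61.8 to 86.6. Their part in these differences was not tested.

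Slc25a25 varied widely between mice and little between the muscles of a mouse. Its TPM in the gastrocnemius and the quadriceps was 221 and 202 in M02, 192 and 172 in M03, 95.2 and 95.8 in M08, 115 and 119 in M11, 295 and 372 in M12 and 288 and 277 in M20. Within a mouse the gastrocnemius was thus between 0.795 and 1.116 times the quadriceps, whereas the mouse means ran from 95.5 to 334 TPM, a ratio of 3.49 and the largest of the 32 members. With 1 TPM added to each mouse mean the ratio was 3.47, and 2.16% of all genes tested had a larger one. Flight and ground mice overlapped in both muscles, with log2 differences of 0.42 ± 0.42 in the gastrocnemius and 0.62 ± 0.45 in the quadriceps (adjusted p = 0.671 and 0.642).

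Across the 6 mice the log2 level of Slc25a25 in both muscles had a Pearson r of 0.97 (exact permutation p = 0.00278) and a Spearman rho of 1.0 (exact permutation p = 0.00278). Adjusted by the Benjamini-Hochberg method over the 32 members, each p was 0.0889. Without the 2 mice farthest from the median of the gastrocnemius values, r over the remaining 4 was 0.95. The mice left out, M08 and M11, were the lowest in both muscles, and the highest, M12 and M20, stayed in. The ground and flight mice were pooled here, and 3 mice per condition are too few for a value within each.

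**Figure D4:**
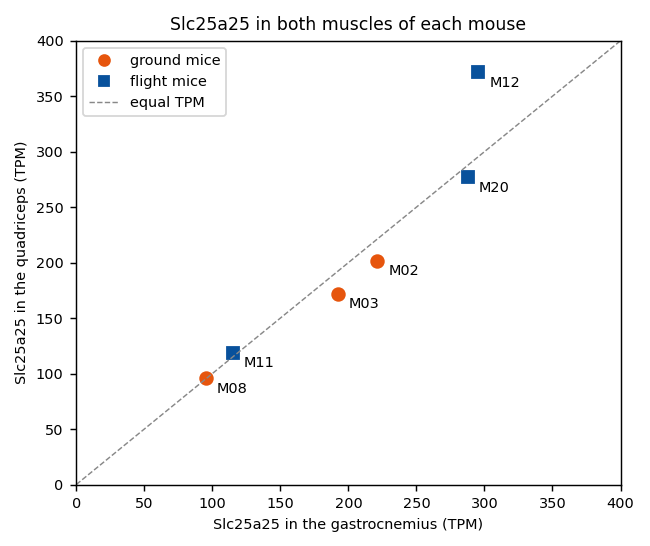
TPM of Slc25a25 in the gastrocnemius (horizontal) and the quadriceps (vertical) of each of the 6 mice, with the line of equal TPM. The points lie near the line from M08, at 95.2 and 95.8 TPM, to M12, at 295 and 372 TPM.

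Slc25a25 has several start sites, and the promoter of 1 of them is shown because it holds a cAMP response element, the letters TGACGTCA, in capitals. The 250 bases before that start site are chr2:32424067-32424316 on the minus strand (RefSeq, GRCm38.p6).
Slc25a25: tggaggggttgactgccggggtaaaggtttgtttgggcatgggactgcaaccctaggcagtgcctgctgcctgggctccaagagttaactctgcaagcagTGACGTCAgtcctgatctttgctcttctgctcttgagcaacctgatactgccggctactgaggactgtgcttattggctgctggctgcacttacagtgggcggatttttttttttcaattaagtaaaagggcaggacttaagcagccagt
The motif, searched on both strands in windows of 250 bases before to 50 after each start, was found for 2 of the 36 members with a promoter in the table, Slc25a25 and Slc25a36, and for 2.03% of all genes. Promoters of Slc25a3 and Slc25a4 are shown because both genes were lower after flight in both muscles. Each holds 1 match to the ETS motif CCGGAAG, in capitals, as did 7 of the 36 members (19.4%) and 9.93% of all genes. They are chr10:91123968-91124217 and chr8:46211063-46211312, both on the minus strand.
Slc25a3: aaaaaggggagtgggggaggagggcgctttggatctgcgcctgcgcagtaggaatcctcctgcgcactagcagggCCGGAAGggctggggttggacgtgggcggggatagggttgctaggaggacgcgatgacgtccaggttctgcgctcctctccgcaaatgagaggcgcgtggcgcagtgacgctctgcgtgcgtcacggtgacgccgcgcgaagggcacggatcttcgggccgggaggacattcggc
Slc25a4: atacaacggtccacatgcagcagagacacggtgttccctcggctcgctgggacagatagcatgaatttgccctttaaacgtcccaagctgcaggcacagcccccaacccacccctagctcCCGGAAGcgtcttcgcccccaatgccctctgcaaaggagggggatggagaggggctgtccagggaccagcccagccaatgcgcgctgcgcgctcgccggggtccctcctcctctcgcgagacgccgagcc
In all, 7 motifs were searched. The GC box was found for 83.3% of members against 38.2% of all genes, and the TATA box for 5.56% against 15.7%. A higher share in members was thus not particular to the ETS motif. A match is a string of letters and not evidence of binding.

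Splicing was read from junction counts of skipped exon and mutually exclusive exon events, as percent spliced in (PSI), the share of one form. In each muscle 5 events of 3 members were listed, of which 4 were kept in the gastrocnemius and 3 in the quadriceps. No member event was called by limma at an adjusted p under 0.05 and a PSI difference over 5 points, where 0.378% of all kept gastrocnemius events and 0% of the quadriceps events were called. At an unadjusted p under 0.05 there were 2 member events in the gastrocnemius and 1 in the quadriceps, against 9.49% and 7.76% of all events. The quadriceps event, an exon of Slc25a25 described below, passed the PSI filter through 1 flight sample only. The median depth of a kept event was 35 junction reads a sample in the gastrocnemius and 37 in the quadriceps. The samples are unnamed in these tables and were not tied to mice.

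Nearly all Slc25a3 junction reads joined exon A. In the gastrocnemius its PSI against exon B was 97.3%, 97.9% and 97.7% in the ground samples and 97.0%, 95.8% and 94.8% in the flight samples, without overlap (16.2% of all kept events did not overlap). The difference was -1.77 points (adjusted p = 0.403), and the exact permutation p was 0.1, the smallest that 3 against 3 allow. Exon B was joined by 12, 11 and 10 reads on the ground and by 15, 19 and 23 reads after flight. In the quadriceps PSI was 99.0%, 97.4% and 100% on the ground and 97.9%, 97.6% and 96.2% after flight, an overlapping difference of -1.57 points. That quadriceps event was above 95% in all 6 samples and therefore not tested across events.

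The pairing of the long form of exon A with exon B rests on the same exon B reads. Its inclusion reads equalled those of a skipped exon event of the short form in every gastrocnemius sample. They cannot be assigned to the long form alone, and these events are not independent. The PSI of the long-form pairing in the gastrocnemius was 85.1% ± 2.0 on the ground and 71.9% ± 9.58 after flight (SD, n = 3, limma adjusted p = 0.523). In the quadriceps it was 91.1% ± 9.88 and 81.6% ± 2.10 (adjusted p = 0.689). A skipped exon event of exon A had 3 to 5 skipping and 36 to 76 inclusion reads per gastrocnemius sample. Against exon B, exon A was joined by 422 to 501 reads in the same muscle. The skipped exon PSI of 89.4% ± 4.40 and 85.6% ± 6.45, with overlap, thus holds for that event and not for exon A altogether.

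**Figure D5:**
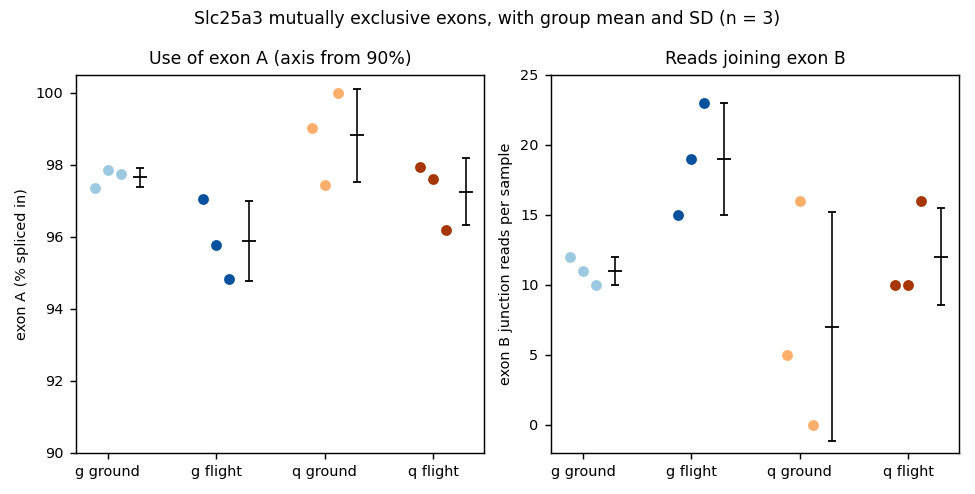
PSI of Slc25a3 exon A against exon B (left, axis from 90%) and the junction reads that join exon B (right) in each sample, with the group mean and SD (n = 3). Exon B reads number 10 to 12 in ground and 15 to 23 in flight gastrocnemius samples.

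A 36-base coding exon of Slc25a25, at chr2:32420656-32420691, was mostly skipped. It is shown because its inclusion differed in opposite directions in the muscles.
Slc25a25 exon: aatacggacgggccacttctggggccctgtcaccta
In the gastrocnemius 5, 4 and 1 reads on the ground and 0, 8 and 10 after flight included it, with PSI of 1.72%, 1.60% and 1.62% against 0.00%, 1.21% and 1.35%. In the quadriceps 4, 1 and 0 reads on the ground and 9, 20 and 10 after flight included it, with PSI of 1.62%, 0.32% and 0.00% against 5.88%, 3.20% and 1.81%. The quadriceps groups did not overlap, as in 12.5% of all kept events, and their difference was 2.99 points (adjusted p = 0.617). That event entered the tested PSI range only through the flight sample at 5.88%, so its test and its place among kept events depend on that sample. The gastrocnemius event lay under the PSI range that was tested. A 126-base exon of Slc25a22, at chr7:141433900-141434025, was included by 12 to 24 reads per gastrocnemius sample and by 2 to 12 per quadriceps sample. In the quadriceps its PSI was 100%, 75.0% and 100% on the ground and 100%, 75.0% and 53.8% after flight, a difference of -15.4 points with overlap, from an event with too few reads to be tested across events. In the gastrocnemius the difference was -2.13 points, also with overlap (adjusted p = 0.998).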

How the data were processed

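Gene expression was deposited as TPM, which the authors estimated with kallisto (0.46.0 in the submitters' processing notes) and summed per gene. TPM carries no read depth, and each library summed to between 923295 and 966638. These totals did not overlap between groups, with at most 924762 in ground and at least 937534 in flight gastrocnemius. Quadriceps totals were 952229 to 961683 on the ground and 964792 to 966638 after flight. Symbols came from GENCODE vM21 for 35856 of 36008 identifiers. Members and gene lists were chosen with earlier results of these data known. Genes above 5 TPM in at least 1 of 12 libraries were tested with limma 3.58.1 (R 4.3.3, eBayes with a trend) on log2(TPM + 1), a scale that understates changes of low genes, with two-sided p-values adjusted by Benjamini-Hochberg over 10481 genes. Only the libraries of the compared groups entered a fit, and all 12 entered the interaction. The deposited splicing tables, made by the authors with STAR 2.7.1a on mm10 and rMATS-turbo (version not given in the sources used here), hold junction reads and PSI per sample. Their first sample list was taken as ground and the second as flight, the order in which each table names the groups. Events with a mean over 10 junction reads in both groups, and not all at or under 0.05 or at or over 0.95 PSI, were tested with limma on log2 inclusion over skipping reads, each divided by its effective length after adding 0.5. The authors' p-values, FDR and PSI differences were not used. The DESeq2 counts of the authors were not analysed here.

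One member is counted in the totals and not reported individually or drawn here. Named members were the 12 with the highest mean TPM, those with an unadjusted p under 0.05 for flight in either muscle or for the interaction, the 6 with the smallest p between muscles in each condition, and those with a splicing event. Listed partners and markers were named at an unadjusted p under 0.05, at most 4 per list and muscle. Both muscles of a mouse pair by animal, and deviations of the paired libraries correlated at 0.09, 0.01 and 0.16 on the ground and at 0.33, 0.18 and -0.12 after flight. Simulated data in which 200 features were changed served to check the pairwise expression tests and the splicing tests. The interaction test was not simulated. At a log2 change of 1, 76.5% (gastrocnemius) and 66% (quadriceps) of them were called in expression, against 6% and 12.5% in splicing. Noise was drawn independently, with 1 fixed spread for all splicing events beside the sampling of reads. Changes between 0 and a log2 of 1 were not simulated, so these shares do not cover smaller differences. Promoter and motif searches used the RefSeq table (GRCm38.p6), which matched 36 members.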

Additional observations from a re-analysis of the deposited data

Results flagged for a closer look

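The effect of flight differed between the muscles at an unadjusted limma interaction p under 0.05 for 3 carriers. The flight effect in the gastrocnemius minus that in the quadriceps was -0.42 on the log2 scale for Slc25a36, 0.88 for Slc25a10 and 0.72 for Slc25a22. None had an adjusted p under 0.05 (0.955, 0.999 and 0.999), and 3.46% of all genes reached the same unadjusted threshold.

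Inclusion of the 36-base exon of Slc25a25 was lower in every flight than in every ground sample of the gastrocnemius, by -0.79 points of PSI, and higher in every flight sample of the quadriceps, by 2.99 points. The difference between the muscles was not tested, and the values rest on 0 to 20 inclusion reads per sample. All gastrocnemius values lay between 0.00% and 1.72%, near the floor and under the tested PSI range, so no share of kept events applies to them. The quadriceps event was in that range only through the flight sample at 5.88%, and 12.5% of all kept quadriceps events did not overlap.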

How the results depend on the processing

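No member was called in any flight comparison under another pseudocount, no filter on low values, no trend, rescaling, 1 fit of all 12 libraries, the replicate block or without any 1 library. For the muscle comparison on the ground, the called count was 0 to 1 when 1 library was left out, the 1 being Slc25a1 without the quadriceps of M08 (log2 difference -1.05, adjusted p = 0.0271). After flight it was 1 with all 12 libraries in 1 fit (Slc25a22, log2 difference 0.95, adjusted p = 0.0173). The causes were not tested. The median log2 change over members in the gastrocnemius ranged from -0.15 (without M02) to -0.044 (without M03) when 1 library was left out, and in the quadriceps from -0.17 (without M20) to -0.07 (without M12). Between the muscles it ranged from -0.097 (without the gastrocnemius of M03) to -0.032 (without the quadriceps of M02) on the ground, and after flight from -0.065 to 0.021 (without the gastrocnemius and the quadriceps of M20), so that its sign was not stable. The number of members at an unadjusted p under 0.05 ranged from 4 to 10 for flight in the gastrocnemius, the 10 being without M11, when 133 of all genes were called in place of 24. It ranged from 5 to 8 in the quadriceps, from 2 (without the gastrocnemius of M03) to 7 between muscles on the ground and from 4 to 6 after flight, in place of 6 in each. After rescaling by the median ratio, the median difference between muscles was 0.027 on the ground and 0.062 after flight, in place of -0.09 and -0.04.

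With the replicate number as a block, 0 members were called for flight in either muscle, 4 and 6 being at an unadjusted p under 0.05, and with mouse as a block 0 were called between muscles or for the interaction, so the block changed no call. The replicate numbers of flight and ground mice share only a number, and the deviations of same-numbered libraries correlated between -0.14 and 0.11 in the gastrocnemius and between -0.18 and -0.07 in the quadriceps. For splicing, no paired analysis was possible because the samples are unnamed. Leaving out 1 sample gave 0 called member events, and the PSI difference of Slc25a3 ranged from -2.35 to -1.25 points in the gastrocnemius and from -2.26 to -0.98 in the quadriceps. Depth limits the splicing results, where a few reads set each PSI of Slc25a25 and Slc25a22.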

Other observations

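Ucp3, an uncoupling protein of the carrier family with a symbol outside the rule, was noticed after its values were seen. In the gastrocnemius it was listed at 125 TPM in M02, 99.4 in M03, 70.7 in M08, 72.7 in M11, 166 in M12 and 135 in M20. In the quadriceps of the same mice it was at 100.3, 96.7, 75.3, 69.7, 185 and 135 TPM. M08 and M11 were the lowest and M12 the highest in both muscles, as for Slc25a25.

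The quadriceps of ground mouse M02 had slow fiber markers summing to 967 TPM, against 2261 and 2299 TPM in the other ground quadriceps libraries. Slc25a53 was above 5 TPM in the quadriceps of M08 only, at 7.32 TPM, against 1.85 to 3.62 in the other 11 libraries, and passed the filter through that library alone.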
